A study of Drosophila melanogaster with 9 samples.

Results

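The exon junction complex (EJC) and the nonsense-mediated mRNA decay (NMD) pathway were represented by 10 listed genes. These were *mago*, *tsu*, *btz* and *RnpS1* for the EJC, and *Upf1*, *Upf2*, *Upf3*, *Smg1*, *Smg5* and *Smg6* for NMD. They were found by annotated gene symbol among 18769 Affymetrix *Drosophila* probe sets, groups of short probes that each read out a transcript. A probe set annotated with 1 gene alone was found for 7 of the 10 genes, 8 probe sets in all, because *Upf3* had 2. Each gene was represented by the probe set with the highest mean log2 signal. *mago*, *Smg1* (current symbol *nonC*) and *Smg5* are not analysed here.

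Total RNA of hand-dissected testes from newly eclosed males was hybridised to 9 arrays, 3 for each genotype. *Nxt1* testes were w; Nxt1[z2-0488]/Nxt1[DG05102], from flies cultured at 25°C. By the description of the study, one allele changes an amino acid and the other carries a transposon in the coding sequence. *aly* testes were aly[5] red[1] e[1], homozygous for aly[5], from flies cultured at 27°C. Control testes were w; tinRNAi/+; bamGal4VP16/+, from flies cultured at 29°C. They carried an RNAi construct against *tin* with the germline driver bamGal4VP16, and the labels call them normal. Nxt1 protein is a cofactor of bulk mRNA export, and aly protein is a subunit of a transcription complex of spermatocytes. Spermatocytes of both mutants arrest before the meiotic divisions. Genotype cannot be told apart from culture temperature, nor from array batch, since the *Nxt1* arrays were set against arrays that already existed.

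The EJC is deposited on spliced mRNA just upstream of each exon-exon junction and travels with the mRNA to the cytoplasm. Its core is made of the helicase eIF4AIII, the mago and tsu pair that locks the helicase on RNA, and btz. When a ribosome terminates too early, the helicase Upf1 is engaged with Upf2 and Upf3. The SMG proteins then act: Smg1 is a kinase of Upf1, Smg5 an adaptor, and Smg6 the endonuclease that cuts the mRNA near the stop codon. In *Drosophila*, the EJC is known for *oskar* mRNA localisation in the oocyte and for the splicing of genes with long introns, and NMD there does not depend on the EJC for most targets.

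Values are RMA signals on a linear scale as deposited, and differences are of mean log2 signals. Median signals per array lay between 98.4 and 109.5. The scale matters for every direction given here. The median log2 signal of 47 ribosomal protein probe sets was 13.79 to 13.81 on *Nxt1* arrays and 13.83 to 13.94 on *aly* arrays, against 12.64 to 12.72 on control arrays. *CG3927*, the gene the study used to normalise q-RT-PCR, averaged 8555 ± 212 in *Nxt1*, 11000 ± 601 in *aly* and 4999 ± 98.5 in control testes (SD, n = 3 arrays each), higher by 0.77 and 1.14 on the deposited log2 scale but lower by 0.35 (log2 difference -0.35) and not different beyond error (-0.08, adjusted p = 0.304) once arrays were centred on the ribosomal probe sets. Centring on the ribosomal probe sets moved the median of all probe sets by -1.13 in *Nxt1* and -1.22 in *aly* testes against control. Centring on *CG3927* moved this median by -0.775 and -1.14. The study gives expression of *CG3927* as restricted to primary spermatocytes, and its q-RT-PCR used RNA of purified spermatocytes. It also describes *CG3927* levels in *Nxt1* and *comr* testes as near those of wild type, by in situ hybridisation and microarray. The higher value in *Nxt1* testes on the deposited scale differs from that description. *comr* testes are not among the arrays here. On arrays of whole testes, array scale and the share of spermatocytes cannot be told apart in the signal of *CG3927*. The targeted genes were read first. *Nxt1* signal averaged 869 ± 66.7 in *Nxt1*, 922 ± 195 in *aly* and 348 ± 3.63 in control testes, which does not check a label that rests on a substitution and an insertion. The mutants differed by -0.07 (adjusted p = 0.701). Against control, *Nxt1* testes were higher by 1.32 on the deposited scale and by 0.54 with centring on *CG3927* (adjusted p = 0.00187). With ribosomal centring the value was 0.19 and did not pass (adjusted p = 0.178). *aly* signal averaged 53.7 ± 3.45 in *aly* testes and 99.3 ± 6.62 in control testes, a log2 difference of -0.89 (adjusted p = 5.10e-06).

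The cell types in the samples differed. Summed signal of 8 of 8 spermatid markers was 4480 to 5014 in *Nxt1* and 7384 to 7708 in *aly* testes, against 56170 to 57220 in control testes. Summed signal of 8 of 8 primary spermatocyte markers was 11340 to 11690 in *Nxt1* and 20760 to 23650 in *aly* testes, against 14460 to 15690 in control testes. The markers of that list did not move one way, with 5 higher and 2 lower in *Nxt1* and 4 higher and 4 lower in *aly* testes against control on the deposited scale, and their median log2 signal was 10.33 to 10.43 in *Nxt1* and 10.21 to 10.50 in *aly* testes, against 8.90 to 9.27 in control testes. One of them, *bol*, a translational regulator of the meiotic divisions, averaged 1846 in *Nxt1*, 832 in *aly* and 10108 in control testes. For 3 of 4 early germline markers the summed signal was 3378 to 3614, 3655 to 3865 and 2179 to 2573 in *Nxt1*, *aly* and control testes. Most of it was *bgcn*, which averaged 2914, 2728 and 2160. On the deposited scale *bam* and *bgcn* were higher in both mutants. *vas* was lower in *Nxt1* testes (log2 difference -0.49, adjusted p = 0.0138) and did not pass in *aly* testes. Although the study removed accessory glands at dissection, 6 of 6 accessory gland markers summed to 26030 to 85880 in *Nxt1* and 21070 to 52220 in *aly* testes, against 648.1 to 17810 in control testes. For 3 of 3 fat body markers the sums were 295.7 to 775.8 in *Nxt1*, 4366 to 5835 in *aly* and 220.9 to 403.9 in control testes. The sums for 3 of 3 cyst cell markers were 939.4 to 1019, 836.2 to 1001 and 617.7 to 650.1, in the same order of genotypes. Most of these sums was *eya*, at 862, 799 and 534, which was higher in both mutants on the deposited scale. *tj* was lower in *Nxt1* testes (log2 difference -0.38, adjusted p = 0.0199) and did not pass in *aly* testes, and *zfh1* passed in neither. Sums for 2 of 4 sheath muscle markers were 693.4 to 1128, 908.7 to 1099 and 610.9 to 741.7, and the 1 of 2 hub markers measured gave 49.34 to 53.79, 32.56 to 43.85 and 37.96 to 42.13. For 4 of 4 ejaculatory duct and bulb markers the sum was 44320 on the array of *Nxt1* replicate 1 and 8561 and 9496 on the other *Nxt1* arrays, with 15020 to 24950 in *aly* and 2977 to 6212 in control testes. Without *Nxt1* replicate 1, all 7 measured EJC and NMD genes were still called higher in *Nxt1* than in control testes on the deposited scale, and the one call of the 7 genes to change was that of *Upf1* between the mutants, given below. No marker was at 0 on any array, since RMA gives every probe set a positive signal. In whole testes, fewer cells of a type and less RNA per cell cannot be told apart. The part of these differences in the results below was not tested.

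On the deposited scale, all 7 measured EJC and NMD genes were higher in *Nxt1* than in control testes, with log2 differences of 0.48 to 1.59 and a median of 0.77; with ribosomal centring *tsu* alone stayed higher and 4 genes were lower. The call rests on limma with all 9 arrays and Benjamini-Hochberg adjustment over all probe sets, at an adjusted p under 0.05. Of all probe sets, 34.1% were called higher and 24.2% lower in *Nxt1* testes, and among the brighter 9385 probe sets, to which all 7 genes belong, 56.6% were higher. In *aly* testes 6 of the 7 genes were higher than in control testes on the deposited scale, by 0.63 to 2.04, and *Smg6* did not pass; with ribosomal centring *tsu* alone stayed higher and 3 genes were lower. The median over the 7 genes was 1.10. In *aly* testes 44.0% of all probe sets were called higher and 20.0% lower, and 59.5% of the brighter ones were higher. The median of all probe sets against control was -0.01 for *Nxt1* and 0.21 for *aly* testes, and that of the brighter probe sets 0.53 and 0.69. Between mutants, *Smg6* was higher in *Nxt1* than in *aly* testes, 4 genes were lower and 2 did not pass, beside 20.6% of all probe sets called higher and 38.5% called lower. *Smg6* was higher with each centring too, but the number of lower genes was 2 with ribosomal centring, 0 with centring on *CG3927* and 6 with centring on the median of all probe sets. Of all probe sets, dim ones included, 27.8%, 13.4% and 54.1% were lower in this order, and 22.6%, 37.1% and 17.5% were higher. All *Nxt1* arrays lay above all control arrays for 7 of the 7 genes (37.1% of all probe sets above and 32.1% below). All *aly* arrays did so for 6 genes (46.0% above and 20.8% below), and *Nxt1* arrays lay above *aly* arrays for 1 gene and below them for 4 (22.0% and 42.3%). The comparisons with control share their control arrays.

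**Figure D1:**
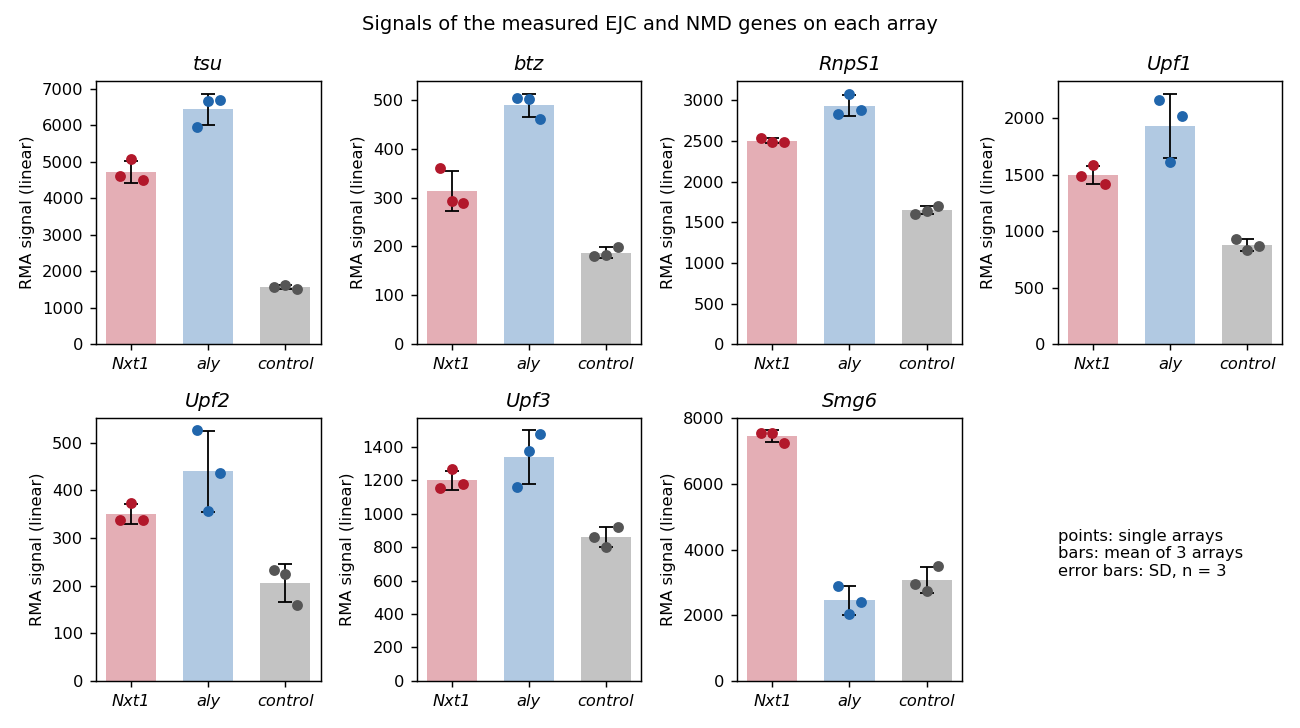
Linear RMA signals of the 7 measured EJC and NMD genes in *Nxt1*, *aly* and control testes, with points for single arrays, bars for the mean of 3 arrays and error bars for the SD. On this scale *tsu* sits at 4503 to 5075 in *Nxt1* and 5956 to 6703 in *aly* testes, above 1524 to 1617 in control testes, while *Smg6* sits at 7248 to 7565 in *Nxt1* testes and at 2053 to 3501 in *aly* and control testes; ribosomal centring turns the direction against control of *btz*, *RnpS1*, *Upf1*, *Upf2* and *Upf3*, of *btz* in *Nxt1* testes alone.

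Of the 3 measured EJC genes of the list, *tsu* showed the largest difference from control in both mutants. *tsu* encodes Y14, the RNA-binding partner of mago. Its signals were 4612, 5075 and 4503 in *Nxt1* testes and 5956, 6681 and 6703 in *aly* testes, against 1564, 1617 and 1524 in control testes. Arrays of the 3 genotypes did not overlap, with *aly* highest and control lowest. *tsu* was 3.01-fold higher in *Nxt1* testes (log2 difference 1.59, SE 0.08, adjusted p = 6.04e-08), and this difference was larger than that of 90.8% of all probe sets. It was 4.11-fold higher in *aly* testes (2.04, adjusted p = 6.39e-09), above 93.5% of all probe sets. It stayed higher in both mutants after each centring, by 0.46 in *Nxt1* and 0.82 in *aly* testes (adjusted p = 2.84e-04 and 4.37e-06) on the ribosomal probe sets and by 0.82 and 0.90 on *CG3927* (1.15e-05 and 4.48e-06). *tsu* was lower in *Nxt1* than in *aly* testes by a log2 difference of -0.45 (adjusted p = 0.00117), which held with ribosomal centring (-0.36, adjusted p = 0.00425) but not with centring on *CG3927* (-0.08, adjusted p = 0.445).

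*btz* encodes Barentsz, the cytoplasmic core component of the EJC. Its signals were 361, 293 and 288 in *Nxt1* testes and 503, 502 and 461 in *aly* testes, against 181, 182 and 200 in control testes. The 3 genotypes again formed separate ranges, with *aly* highest. The log2 difference from control was 0.74 in *Nxt1* (SE 0.10, adjusted p = 1.12e-04) and 1.38 in *aly* testes (adjusted p = 7.01e-07). With ribosomal centring it was -0.39 in *Nxt1* testes (adjusted p = 0.00657), a turned direction, and 0.16 in *aly* testes (adjusted p = 0.181). *btz* had the most negative difference of the 7 genes between mutants, -0.64 for *Nxt1* minus *aly* (adjusted p = 4.42e-04), and -0.55 with ribosomal centring (adjusted p = 0.00196). With centring on *CG3927* it was -0.28 and did not pass (adjusted p = 0.0651). The probe set of *btz* carries the suffix that the array maker gives to probes shared between transcripts, so it may read more than 1 transcript.

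*RnpS1* encodes a peripheral EJC protein that also takes part in splicing. It gave the tightest replicates in *Nxt1* testes, 2539, 2485 and 2493. The signals were 2837, 3083 and 2879 in *aly* testes, and 1601, 1642 and 1701 in control testes. Every *aly* array lay above every *Nxt1* array, and every *Nxt1* array above every control array. The differences from control were 0.60 in *Nxt1* (SE 0.07, adjusted p = 2.86e-05) and 0.83 in *aly* testes (adjusted p = 1.97e-06) on the deposited scale, and -0.52 and -0.39 with ribosomal centring (adjusted p = 5.08e-05 and 4.74e-04), so that *RnpS1* moved less than the ribosomal probe sets in both mutants. *Nxt1* testes were 0.23 below *aly* testes (log2 difference -0.23, adjusted p = 0.0186), a call that was lost without *Nxt1* replicate 2 (adjusted p = 0.0546) or *Nxt1* replicate 3 (0.0561), and with centring on *CG3927* the value was 0.14 (0.161).

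Among the NMD genes, *Upf1* and *Upf2* were higher in both mutants on the deposited scale and did not differ from control beyond error with centring on *CG3927*. *Upf1* encodes the RNA helicase at the centre of NMD. Its signals were 1492, 1582 and 1417 in *Nxt1* testes and 2162, 1614 and 2024 in *aly* testes, against 934, 833 and 873 in control testes. Mutant arrays lay above all control arrays, and the lowest *aly* array lay just above the highest *Nxt1* array. *Nxt1* testes differed from control by 0.77 (SE 0.11, adjusted p = 1.88e-04) and *aly* testes by 1.13 (adjusted p = 8.64e-06). With centring on *CG3927* both were -0.01 (adjusted p = 0.956 and 0.945), and on the ribosomal probe sets -0.36 (0.0269) and -0.09 (0.522). *Nxt1* minus *aly* was -0.36 (adjusted p = 0.0209), and this call was lost without either of *Nxt1* replicates 1 and 3 or *aly* replicates 1 and 3 (adjusted p = 0.0531 to 0.0715). It was also lost with ribosomal centring (-0.27, adjusted p = 0.125) and with centring on *CG3927* (0.002, adjusted p = 0.991).

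*Upf2* encodes the protein that bridges Upf1 and Upf3. Its signals were 337, 374 and 337 in *Nxt1* testes and 526, 356 and 437 in *aly* testes, against 232, 224 and 159 in control testes. Both mutants lay above control on every array, and the mutants overlapped each other. Against control, *Nxt1* testes gave 0.79 (SE 0.17, adjusted p = 0.00258) and *aly* testes 1.10 (adjusted p = 2.34e-04), with the largest error of the 7 genes. With ribosomal centring it was -0.34 (adjusted p = 0.103) and -0.12 (0.558). The mutants differed by -0.32 (95% confidence interval -0.70 to 0.07, adjusted p = 0.136), which did not pass.

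*Upf3* encodes the NMD protein that in mammals contacts the EJC. Its brighter probe set gave 1155, 1265 and 1177 in *Nxt1* testes and 1162, 1373 and 1478 in *aly* testes, against 861, 798 and 922 in control testes. The mutants overlapped and both lay above control. It had the smallest difference from control in *Nxt1* testes, 0.48 (SE 0.10, adjusted p = 0.00247), and 0.63 in *aly* testes (adjusted p = 3.48e-04). These directions turned with ribosomal centring (-0.65 and -0.59, adjusted p = 1.55e-04 and 3.24e-04) and with centring on *CG3927* (-0.29 and -0.50, adjusted p = 0.0237 and 0.00111). *Nxt1* minus *aly* was -0.15 (95% confidence interval -0.38 to 0.08, adjusted p = 0.226). The dimmer probe set of *Upf3* had signals of 22.3 to 34.1 over the 9 arrays and passed in no comparison (adjusted p = 0.93 in *Nxt1* and 0.602 in *aly* testes against control). The mean of both probe sets gave 0.25 in *Nxt1* (adjusted p = 0.0785) and 0.27 in *aly* testes (0.0548), which did not pass.

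*Smg6*, which encodes the endonuclease of NMD, differed most between the mutants. Its signals were 7565, 7558 and 7248 in *Nxt1* testes and 2907, 2053 and 2393 in *aly* testes, against 2967, 2748 and 3501 in control testes. All *Nxt1* arrays lay far above the others, and *aly* and control arrays overlapped. *Smg6* was 2.44-fold higher in *Nxt1* than in control testes (log2 difference 1.29, SE 0.13, adjusted p = 1.28e-05). It was 0.51 higher with centring on *CG3927* (adjusted p = 0.0118) and 0.16 with ribosomal centring, which did not pass (adjusted p = 0.349). In *aly* testes the difference from control was -0.33 (95% confidence interval -0.63 to -0.03, adjusted p = 0.0504), just outside the threshold. It passed as lower with ribosomal centring (-1.55, adjusted p = 5.03e-06) and with centring on *CG3927* (-1.47, adjusted p = 9.98e-06), and also without *aly* replicate 1 (-0.46, adjusted p = 0.00724) or control replicate 2 (-0.41, adjusted p = 0.0395). The direct contrast did not depend on the scale. *Smg6* was 3.07-fold higher in *Nxt1* than in *aly* testes (1.62, SE 0.13, adjusted p = 4.38e-06), above 93.9% of all probe sets. The value was 1.49 to 1.98 over the 3 centrings and 1.50 to 1.75 when each array was left out in turn, and it passed every time.

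**Figure D2:**
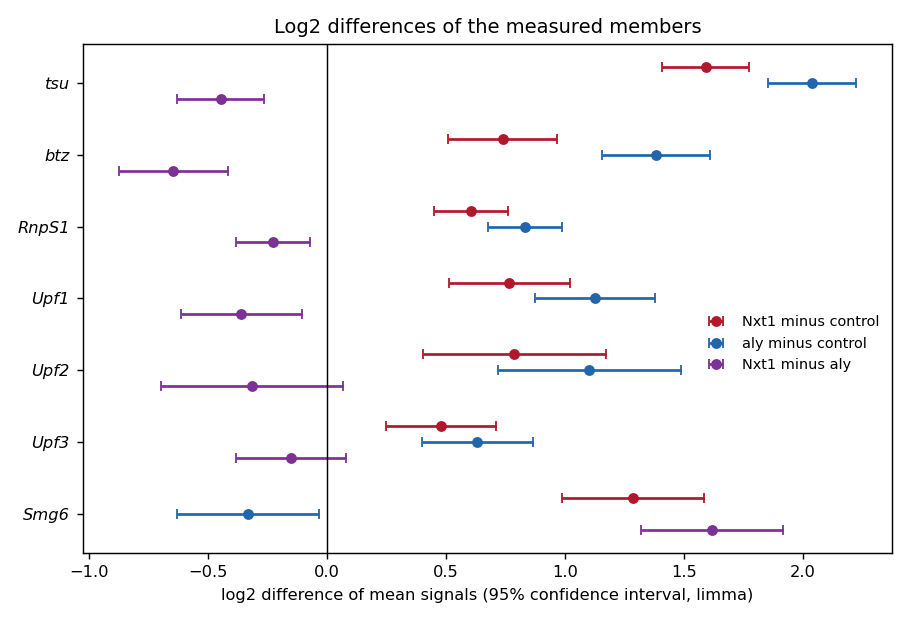
Log2 differences of the 7 genes on the deposited scale in each mutant against control and between the mutants (*Nxt1* minus *aly*), with 95% confidence intervals from limma. *Smg6* is the gene whose *Nxt1* minus *aly* difference lies above 0, at 1.62, while that of *btz* lies lowest, at -0.64; most values against control change with the scale of the arrays.

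Ribosomal centring turned the direction of 5 of the 7 genes in *Nxt1* and of 4 in *aly* testes against control. With centring on *CG3927*, 2 of the 7 genes were higher in *Nxt1* testes (*tsu* and *Smg6*) and 1 was lower (*Upf3*). In *aly* testes 1 was higher (*tsu*) and 3 were lower (*RnpS1*, *Upf3* and *Smg6*). Of all probe sets, 16.8% were higher and 69.1% lower in *Nxt1* testes with this centring, and 14.3% and 74.1% in *aly* testes. With ribosomal centring 1 was higher (*tsu*) and 4 were lower (*btz*, *RnpS1*, *Upf1* and *Upf3*) in *Nxt1* testes, and the same 1 was higher and the same 3 were lower in *aly* testes as with *CG3927*. The shares of all probe sets were then 11.2% higher and 77.7% lower in *Nxt1* and 13% and 76% in *aly* testes. With either centring these shares include dim probe sets, and none was computed for the brighter probe sets, to which all 7 genes belong. Centring on the median of all probe sets turned no direction of the 7 genes, and *Upf2* and *Upf3* then passed as lower in *Nxt1* than in *aly* testes (-0.45 and -0.28, adjusted p = 0.0389 and 0.0365). Over all probe sets, lower calls made up 41.5% of calls in *Nxt1* against control on the deposited scale, 80.4% with *CG3927* and 87.4% with ribosomal centring. In *aly* against control these shares were 31.3%, 83.8% and 85.4%. Between the mutants, 65.1% of calls were lower in *Nxt1* testes on the deposited scale, 26.5% with *CG3927*, 55.1% with ribosomal centring and 75.6% with median centring.

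**Figure D3:**
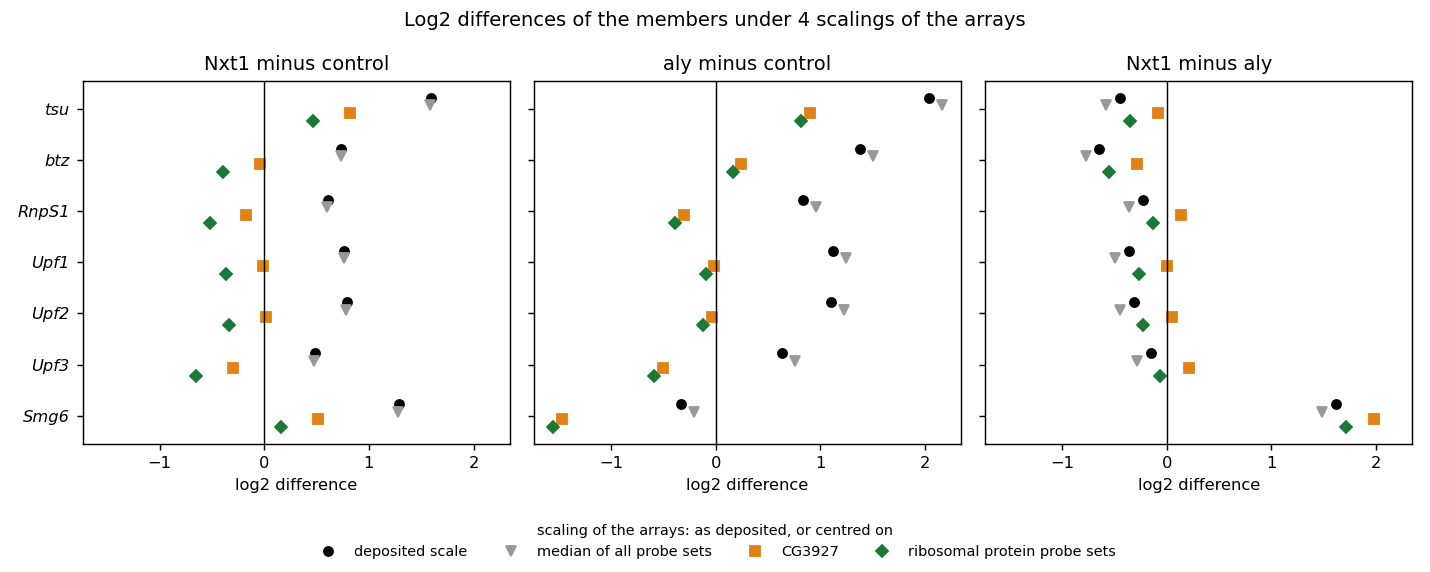
Log2 differences of the 7 genes in the 3 comparisons under 4 scalings: as deposited, and with each array centred on the median of all probe sets, on *CG3927* or on ribosomal protein probe sets. *tsu* stays above 0 in both mutants against control (0.46 to 1.59 in *Nxt1* and 0.82 to 2.16 in *aly* testes), and *Smg6* stays above 0 in *Nxt1* minus *aly* (1.49 to 1.98). *RnpS1*, *Upf1*, *Upf2* and *Upf3* lie on both sides of 0 in each comparison, and *btz* does so in *Nxt1* minus control alone (-0.39 to 0.74).

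A measure that the scale cannot move was read from each array alone. The log2 signal of each gene was taken relative to the mean of the other 6 on the same array, and the control mean of this value was set to 0. *tsu* lay at 0.76 to 0.89 in *Nxt1* and 1.05 to 1.40 in *aly* testes, against -0.05 to 0.08 in control testes. *Smg6* lay at 0.44 to 0.48 in *Nxt1* and -1.71 to -1.28 in *aly* testes, against -0.15 to 0.22 in control testes. These are separate ranges on opposite sides of control for *Smg6* and on the same side for *tsu*. *Upf3* lay below control in both mutants, at -0.56 to -0.44 in *Nxt1* and -0.69 to -0.24 in *aly* testes. *btz* lay above control in *aly* testes (0.36 to 0.62) and at -0.34 to 0.04 in *Nxt1* testes, which overlapped the control range of -0.08 to 0.10. *RnpS1* lay at -0.40 to -0.28 in *Nxt1* testes, below control arrays, while *Upf1* and *Upf2* stayed nearest to the mean of the others, at -0.17 to -0.10 and -0.20 to -0.05 in *Nxt1* testes. Such values show unequal change among the 7 genes and not which of them moved.

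**Figure D4:**
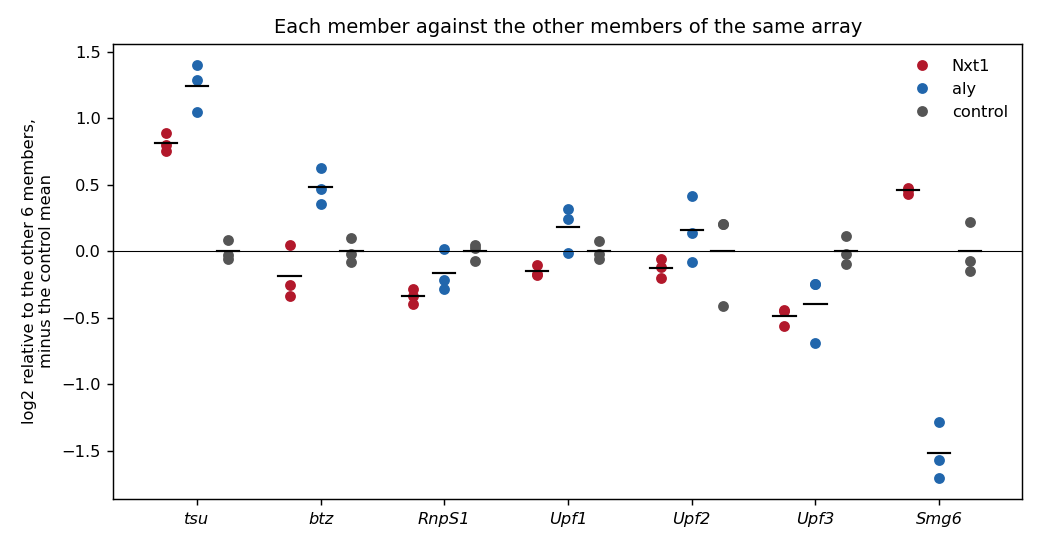
Log2 signal of each gene relative to the mean of the other 6 genes on the same array, minus the control mean of that value, with points for arrays of *Nxt1*, *aly* and control testes and lines for their means. *Smg6* lies at 0.44 to 0.48 in *Nxt1* testes and -1.71 to -1.28 in *aly* testes, and *tsu* at 0.76 to 0.89 and 1.05 to 1.40.

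The remaining genes of these pathways were taken from lists of 53 genes, of which 45 were measured. On the deposited scale 33 were higher and 6 lower in *Nxt1* than in control testes, and 31 were higher and 8 lower in *aly* testes; with ribosomal centring the counts were 13 higher and 25 lower in *Nxt1* and 12 higher and 22 lower in *aly* testes. These counts stand beside 34.1% of all probe sets higher and 24.2% lower in *Nxt1* and 44.0% and 20.0% in *aly* testes as deposited, and beside 11.2% higher and 77.7% lower in *Nxt1* and 13.0% and 76.0% in *aly* testes with ribosomal centring. Most of the 45 genes belong to the brighter 9385 probe sets. Of these, 56.6% were higher and 27.9% lower in *Nxt1* and 59.5% and 28.2% in *aly* testes as deposited. The same shares stand beside the counts of each list below. Shares of the brighter probe sets were not computed with ribosomal centring. The shares over all probe sets include dim ones, so they are not a like background for the counts with ribosomal centring. The median differences were 0.73 in *Nxt1* and 0.95 in *aly* testes. Between the mutants 19 were higher and 14 lower in *Nxt1* testes on the deposited scale. Beside them stand 20.6% and 38.5% of all probe sets, and 33.1% and 37.7% of the brighter ones. The differences of the 45 genes from control ran from -3.48 to 3.08 in *Nxt1* testes. A range widens with the number of genes, so it was not set against that of the 7 genes above.

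Of 6 measured genes of the EJC and its associates, 5 were higher and 1 lower in each mutant on the deposited scale, and with ribosomal centring 3 were higher and 1 lower in each. eIF4AIII (*CG7483*), the helicase of the EJC core, had signals of 8734, 8626 and 9170 in *Nxt1* testes and 7350, 8172 and 8193 in *aly* testes, against 1625, 1626 and 1633 in control testes. It was higher by 2.44 in *Nxt1* (adjusted p = 1.63e-09) and 2.28 in *aly* testes (1.30e-09), and with ribosomal centring by 1.31 and 1.06 (7.66e-08 and 3.38e-07). The mutants differed by 0.16 (adjusted p = 0.0799). *Pnn*, a splicing-associated EJC partner, averaged 532 ± 69.4 in *Nxt1*, 625 ± 68.3 in *aly* and 120 ± 7.56 in control testes, and was higher under each scaling too. The 1 lower gene was *Pym*, named here after its values were seen. Pym takes the EJC apart. It averaged 307 ± 9.70 in *Nxt1*, 276 ± 3.15 in *aly* and 741 ± 48.0 in control testes, with log2 differences of -1.27 (adjusted p = 1.56e-07) and -1.42 (4.61e-08), and was lower under every scaling.

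Of 5 measured genes of translation termination and ribosome rescue, 4 were higher and 1 lower in *Nxt1* testes, and 2 were higher and 1 lower in *aly* testes; with ribosomal centring the counts were 1 higher and 3 lower in *Nxt1* and 0 higher and 4 lower in *aly* testes. *pelo*, which frees stalled ribosomes together with HBS1, averaged 4677 ± 553 in *Nxt1*, 2293 ± 314 in *aly* and 1467 ± 53.2 in control testes. *Nxt1* exceeded *aly* testes by 1.03 (adjusted p = 5.06e-05), and by 1.12 with ribosomal centring. Against control it was higher by 1.67 in *Nxt1* and by 0.64 in *aly* testes, but in *aly* testes the direction turned with ribosomal centring (-0.58, adjusted p = 0.00168). *HBS1* averaged 4934 ± 270 in *Nxt1*, 5412 ± 199 in *aly* and 2684 ± 223 in control testes, and its differences of 0.88 and 1.01 turned to -0.25 and -0.20 with ribosomal centring. The lower gene, named after its values were seen, was *eRF3*, a release factor, with -0.35 in *Nxt1* (adjusted p = 0.0304) and -0.70 in *aly* testes (4.57e-04), lower under every scaling.

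For decapping and decay from the 5′ end, 6 of 7 measured genes were higher and 0 lower in each mutant on the deposited scale, and with ribosomal centring 2 were higher in *Nxt1* and 1 in *aly* testes while 4 were lower in each. *LSm1*, a subunit of the ring that binds deadenylated mRNA, averaged 1538 ± 52.9 in *Nxt1*, 1210 ± 75.9 in *aly* and 352 ± 10.9 in control testes. Its differences of 2.13 and 1.78 were 1.00 and 0.56 with ribosomal centring (adjusted p = 4.37e-07 and 2.74e-05). *Patr-1*, a decapping activator, averaged 1092 ± 92.2, 689 ± 22.4 and 296 ± 19.4 in *Nxt1*, *aly* and control testes. It was higher in *Nxt1* testes under each scaling (1.88 as deposited, 0.75 with ribosomal centring), and in *aly* testes by 1.22 as deposited but not with ribosomal centring (adjusted p = 0.993).

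Of 12 measured deadenylation genes, 9 were higher and 3 lower in *Nxt1* testes, and 6 were higher and 4 lower in *aly* testes; with ribosomal centring the counts were 4 higher and 7 lower, and 3 higher and 7 lower. *PAN2*, a poly(A) nuclease subunit, averaged 5496 ± 109 in *Nxt1*, 2480 ± 388 in *aly* and 652 ± 28.5 in control testes. It was higher by 3.08 (adjusted p = 5.57e-09) and 1.91 (1.18e-07), by 1.95 and 0.70 with ribosomal centring, and *Nxt1* exceeded *aly* testes by 1.16 (1.48e-05). *tob*, a partner of the CCR4-NOT deadenylase, averaged 388 ± 40.4 in *Nxt1*, 316 ± 70.1 in *aly* and 4364 ± 633 in control testes, the largest difference of all these genes (-3.48 and -3.80, adjusted p = 4.46e-08 and 1.53e-08). The catalytic subunits of the CCR4-NOT deadenylase, *twin* and *Pop2*, named after their values were seen, were also lower in both mutants under every scaling. *twin* averaged 2317 ± 217 in *Nxt1*, 4083 ± 686 in *aly* and 10120 ± 614 in control testes. *Pop2* averaged 1688 ± 68.5, 1282 ± 76.4 and 4604 ± 45.1 in the same order. The probe sets of *twin*, *Pop2* and *Cnot4* carry the same suffix as that of *btz*, so their probes may be shared between transcripts. *Cnot4*, named for the same reason, was 0.54 higher than control in *Nxt1* testes (adjusted p = 0.0432) and turned to -0.59 with ribosomal centring, and in *aly* testes it was lower under every scaling (-1.01 as deposited, adjusted p = 0.00138). Its signals in *aly* testes were 1764, 927 and 1591, lowest on replicate 2, against 2798, 2715 and 2789 in control testes.

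Of 12 measured exosome and Ski genes, which degrade RNA from the 3′ end, 7 were higher and 1 lower in *Nxt1* testes, and 9 were higher and 2 lower in *aly* testes; with ribosomal centring the counts were 3 higher and 7 lower in *Nxt1*, and 4 and 4 in *aly* testes. The ring subunit *Rrp46* averaged 888 ± 18.1 in *Nxt1*, 1519 ± 163 in *aly* and 277 ± 9.81 in control testes, higher by 1.68 and 2.45 as deposited and by 0.55 and 1.23 with ribosomal centring. The ring subunit *Rrp42* averaged 976 ± 22.3 in *Nxt1*, 412 ± 92.4 in *aly* and 199 ± 33.5 in control testes, higher by 2.31 and 1.04 as deposited, and with ribosomal centring by 1.18 in *Nxt1* testes but not in *aly* testes (-0.18, adjusted p = 0.247). Between the mutants these ring subunits moved in opposite directions, with *Nxt1* minus *aly* at -0.77 for *Rrp46* (adjusted p = 5.60e-05) and 1.27 for *Rrp42* (9.71e-05), and at -0.68 and 1.36 with ribosomal centring. Genes outside the naming rule were *Ski6*, *Rrp4* and *Rrp6*, picked after their values were seen for being lower in 1 mutant on the deposited scale. *Ski6*, a further ring subunit, averaged 965 ± 39.3 in *Nxt1*, 2918 ± 310 in *aly* and 2621 ± 12.9 in control testes, -1.44 in *Nxt1* testes (adjusted p = 2.09e-07), and it was lower in *Nxt1* than in *aly* testes under every scaling (-1.59 as deposited). *Rrp4* and *Rrp6* were the genes lower in *aly* testes as deposited, at -0.29 (adjusted p = 0.00984) and -0.90 (0.00353), and with median centring *Rrp4* did not pass (-0.17, adjusted p = 0.0802). The *aly* signals of *Rrp6* were 2013, 998 and 1564, lowest on replicate 2. With ribosomal centring all 3 genes were lower in both mutants, with *Ski6* at -1.07 in *aly* testes (adjusted p = 7.95e-07), and *Rrp4* at -1.32 (1.70e-07) and *Rrp6* at -1.03 (0.00159) in *Nxt1* testes.

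**Figure D5:**
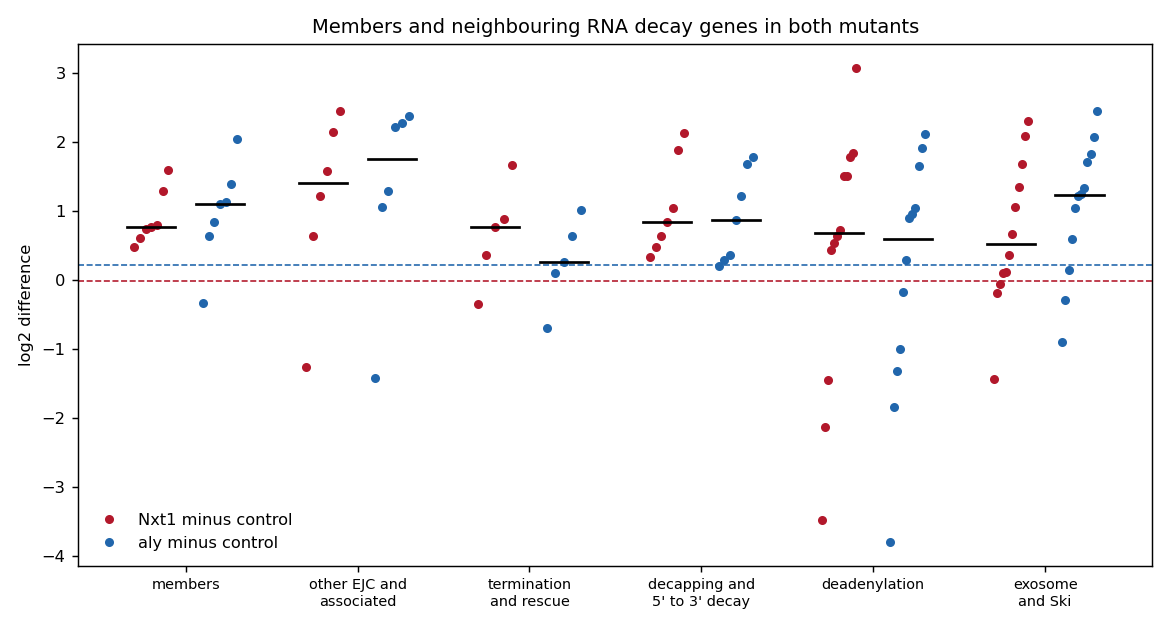
Log2 differences from control on the deposited scale for the 7 measured EJC and NMD genes and for 5 lists of genes of neighbouring RNA decay steps, with a point for each gene in *Nxt1* and in *aly* testes. Black lines are medians of a list and dashed lines the medians of all probe sets (-0.01 in *Nxt1* and 0.21 in *aly* testes); with ribosomal centring most of the medians lie below 0.

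Transcripts known in *Drosophila* as targets of NMD were *Arc1* and *Gadd45*. *Arc1* had signals of 7005, 7254 and 7795 in *Nxt1* testes and 14717, 15695 and 16545 in *aly* testes, against 3780, 5004 and 4129 in control testes. The 3 genotypes did not overlap. It was higher by 0.78 in *Nxt1* (adjusted p = 1.28e-04) and 1.87 in *aly* testes (1.13e-07), and with ribosomal centring it was lower in *Nxt1* (-0.35, adjusted p = 0.00675) and higher in *aly* testes (0.65, 1.02e-04). *Nxt1* testes had less than *aly* testes under each scaling (-1.09 as deposited, adjusted p = 1.90e-05). *Gadd45* averaged 120 ± 9.03 in *Nxt1*, 156 ± 21.8 in *aly* and 107 ± 15.5 in control testes. It differed from control by 0.18 in *Nxt1* (adjusted p = 0.308) and was higher by 0.55 in *aly* testes (0.00543), and both values turned with ribosomal centring (-0.95 and -0.67). *piwi*, whose splicing is known to need the EJC in ovaries, averaged 146 ± 4.02 in *Nxt1*, 143 ± 13.1 in *aly* and 114 ± 4.33 in control testes. Its differences of 0.36 and 0.32 (adjusted p = 0.00414 and 0.00766) turned to -0.77 and -0.90 with ribosomal centring.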

How the data were processed

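Total RNA of testes of 3 genotypes was measured on 9 Affymetrix arrays. The authors' processing notes name GCOS and RMA, with no version, and the deposited signal intensity values are on a linear scale. The log2 of each was taken. Of 18952 probe sets, 183 control probe sets were left out. Of the rest, 13647 carried 1 gene symbol, 402 several and 4720 none, and the gene ID of 13544 was found in a RefSeq gene table, used for names only. With limma 3.58.1 in R 4.3.3, lmFit and eBayes were run on the 9 arrays together, each genotype having its own mean, and p-values were adjusted over 18769 probe sets by the method of Benjamini and Hochberg, at a threshold of 0.05. The fit was tested on simulated data. Tables and figures were made with Python 3.11.15, pandas 2.3.3, numpy 2.4.6 and matplotlib 3.10.9. The labels do not say whether replicate arrays came from separate cultures, so p-values measure the spread between these arrays, and 3 arrays a group limit the precision. The genes, lists and alternatives were chosen with earlier results of these data known. The study gives *CG3927* as a control gene. Of each further list, the 2 genes with the largest absolute difference from control in either mutant were named, and all genes of lists of 2. The value of each gene relative to the other 6 on its array was chosen after seeing the data. Alternatives were 3 centrings, the mean over probe sets, removal of dim probe sets, eBayes with trend and robust, the replicate number as a block, 2 genotypes only, linear means, and leaving out each array. A search for promoter motifs was not run, since no sequence was used here. No coordinates are given, since the build of the array's annotation is not given in the sources used here.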

Additional observations from a re-analysis of the deposited data

How the results depend on the processing

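In 378 recomputed differences of the 7 genes, 330 were counted as the same, 16 lost the call, 11 gained one and 21 turned direction. The last were all with centring on ribosomal probe sets or *CG3927*. Of the 330, 21 came from linear means, which have no p-value and were judged by the size of the difference. The others kept direction and side of the threshold. Removing dim probe sets, eBayes with trend and robust, the block and the fits of 2 genotypes leave each log2 difference as it was, so only the call could change. The mean over probe sets changes *Upf3* alone, and leaving out an array changes only comparisons with its genotype. Pairs of values below give ribosomal centring and then *CG3927*. Of 7 genes, 1 and 2 exceeded control in *Nxt1* testes and 4 and 1 lay below it. In *aly* testes 1 and 1 were higher and 3 and 3 lower. *Nxt1* minus *aly* had 2 and 0 lower. *Nxt1* minus control turned for *btz* (-0.39 and -0.037), *RnpS1* (-0.52 and -0.17), *Upf1* (-0.36 and -0.0085), *Upf3* (-0.65 and -0.29) and *Upf2* (-0.34, ribosomal). *aly* minus control turned for *RnpS1* (-0.39 and -0.31), *Upf1* (-0.093 and -0.011), *Upf2* (-0.12 and -0.033) and *Upf3* (-0.59 and -0.50). *Nxt1* minus *aly* turned for *RnpS1* (0.14), *Upf1* (0.0021), *Upf2* (0.047) and *Upf3* (0.21) with *CG3927*. Of 45 further genes, 13 and 17 were then higher and 25 and 16 lower in *Nxt1*, and 12 and 12 higher and 22 and 22 lower in *aly* testes. Beside these stand 11.2% and 16.8% of all probe sets higher and 77.7% and 69.1% lower in *Nxt1* testes. In *aly* testes the shares were 13% and 14.3% higher and 76% and 74.1% lower. These shares include dim probe sets and were not computed for the brighter ones alone. The cause was not tested.

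*Smg6* passed as the 1 lower gene of *aly* minus control (-0.33) with dim probe sets removed (adjusted p = 0.0403), eBayes trend and robust (0.0293) and the replicate number as a block (0.0494, 1 lower). That block changed no other call of the 7 genes. Same-numbered arrays did not deviate together in every pair (r = 0.35, 0.01 and 0.20 for *Nxt1* and control, 0.03, 0.16 and -0.23 for *aly* and control, 0.00, 0.03 and -0.20 for *Nxt1* and *aly*). Whether the numbers pair any of the arrays is not known from these values. With 1 array left out, *Nxt1* minus control kept 7 higher and 0 lower, *aly* minus control 6 higher and 0 to 1 lower, and *Nxt1* minus *aly* 1 higher and 2 to 5 lower. The lowest of these, 2, was without *Nxt1* replicate 3. The deposited values carry no detection call, so whether dim probe sets such as the dimmer one of *Upf3* lie above background was not tested.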

Other observations

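A few of the further genes had a dimmer probe set of the same gene with another result. For *Acn*, an EJC-associated protein, the brighter probe set was lower in *Nxt1* than in *aly* testes (log2 difference -0.64, adjusted p = 1.86e-04) and the dimmer one higher (0.53, adjusted p = 0.00164), while both were higher in *Nxt1* (1.58 and 2.84) and in *aly* testes (2.22 and 2.31) than in control testes on the deposited scale. For *Arc1*, the dimmer probe set differed from control by 0.86 in *Nxt1* (adjusted p = 0.0313) and 3.07 in *aly* testes (6.54e-06), beside 0.78 and 1.87 for the brighter one. For *Not11*, a CCR4-NOT subunit, the dimmer probe set did not pass in *Nxt1* testes (-0.08, adjusted p = 0.415), where the brighter one gave 0.63 (adjusted p = 1.12e-04) on the deposited scale. The dimmer one averaged only 18.2 in *Nxt1*, 22.9 in *aly* and 19.1 in control testes. It was higher in *aly* than in control testes (0.26, adjusted p = 0.0134) and lower in *Nxt1* than in *aly* testes (-0.34, 0.00402). The brighter one went the same way there, at 1.65 and -1.02. Which transcripts these probe sets read was not analysed here.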
